A study of Sus scrofa with 30 samples.

Results

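The genes described here encode small GTPases that direct vesicle traffic and shape the cytoskeleton. They are the members of the RAB, RAP, RAC and RHOA-related, and ARF and ARL families whose symbol was carried alone by at least 1 probe set of the array, with the probe set of the highest mean over all 30 arrays standing for each gene. This gave 42 genes of 6054 with a symbol of their own: 23 RAB genes, 2 RAP genes (RAP1B and RAP2B), 9 RAC and RHOA-related genes, and 8 ARF and ARL genes. A wider match on the start of the symbol gave 52 genes, of which 10 name binding partners or regulators, such as RAB3IP, and were counted with those. RAB5A, RAP1A and RHOC had no probe set of their own symbol and were not analysed here.

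Expression was measured on Affymetrix porcine arrays in the brachial artery, which supplies the forelimb, and the femoral artery, which supplies the hind limb, of Rapacz HC swine, pigs bred for an inherited excess of blood cholesterol. Both arteries came from each of 15 pigs on a normal diet: 4 were sampled at the age of 1 week, 6 at 1 year and 5 at 2 years. All groups share the strain and the diet, so the comparisons are between arteries and between ages of hypercholesterolaemic pigs, and each group of pigs gives 1 brachial and 1 femoral sample per pig. RNA of the 1-week pigs was purified on columns alone, while that of the older pigs first went through caesium chloride centrifugation, so age and RNA isolation cannot be told apart wherever the 1-week pigs are compared with older ones.

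Small GTPases are switches that are active when bound to GTP and silent when bound to GDP. Exchange factors turn them on, GTPase activating proteins turn them off, and dissociation inhibitors hold the silent form in the cytosol, where a lipid tail would otherwise anchor it to a membrane. RAB and ARF proteins mark organelles and recruit motors, tethers and coats, whereas RAC and RHOA-related proteins set actin assembly, contraction of vascular smooth muscle and the barrier of the endothelium, and RAP proteins act on adhesion.

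The array medians lay between 8.05 and 8.15 on the log2 scale, and the mean level of the small GTPase genes over all arrays between 6.67 and 12.73. The labels also carry a field that names whole blood as the material, although every title names an artery. The mean of the 8 measured smooth muscle contractile markers was 12.58 to 13.88 in every array, and that of the 4 measured erythroid and platelet markers was 7.05 to 7.66. Pigs 9994, 9995 and 9997, all aged 2 years, stood apart from the other 2-year pigs. The mean of the 10 measured lymphocyte markers was 6.75 to 7.44 in their arrays, against 5.73 to 5.83 in pigs 9006 and 9007 and 5.63 to 5.84 at 1 year. The mean of the 9 measured macrophage and monocyte markers was 9.60 to 11.82, 8.06 to 9.15 and 7.82 to 8.74 in the same order, and the results that rest on these pigs are given with and without them.

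The first comparison asked whether these genes differ between the 2 arteries. Most did not differ detectably: over all ages 3 passed as higher and 5 as lower in the femoral than in the brachial artery (limma with the pig as a block, adjusted p under 0.05 over 19362 probe sets), and 34 were not called. The share of all probe sets called was 6.57% higher and 5.99% lower, and that of genes with a symbol 7.95% and 5.02%. Of the small GTPase genes 7.14% were higher, near these shares, and 11.9% were lower, above them. Whether these few genes differ in number from the background was not tested. The median log2 fold change of the small GTPase genes was -0.009, against 0.016 for genes with a symbol and 0.003 over all probe sets. The 5 that were lower were RHOU, RHOJ, ARF6, RAB1A and RHOQ, and the 3 that were higher were RHOG, RAB3D and RAB18. Among the 9 RAC and RHOA-related genes 1 was higher and 3 lower, among the 23 RAB genes 2 were higher and 1 lower, among the 8 ARF and ARL genes 1 was lower, and neither RAP gene was called.

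RHOU, an atypical CDC42-related protein with a high rate of nucleotide exchange, had the largest artery difference of the 42 genes over all ages. In the brachial artery its level was 7.67, 7.68, 7.69 and 8.36 at 1 week, and in the femoral artery 7.06, 7.19, 7.21 and 7.35. At 2 years the brachial levels were 6.82, 7.24, 7.33, 7.40 and 7.61 and the femoral levels 6.15, 6.45, 6.58, 6.76 and 6.78. The arteries did not overlap at either of these ages. At 1 year the brachial levels ran from 7.02 to 7.50 with a median of 7.24, and the femoral levels from 6.73 to 7.03 with a median of 6.76, an overlap of a single pair of arrays. In 15 of 15 pigs the femoral level was the lower one, by a log2 fold change of -0.60 ± 0.07 (standard error; 1.51-fold, adjusted p = 5.49e-06). It was called lower at each age, by -0.65 ± 0.12 at 1 week, -0.44 ± 0.10 at 1 year and -0.74 ± 0.11 at 2 years. The other RHOU probe set was called lower as well, at -0.70 ± 0.09. Over all ages RHOU was called in 21 of 21 alternatives, and the 1-year call was lost when the pig block was dropped (adjusted p = 0.0593). The RHOU probe set used had a mean level of 7.13, at percentile 33 of all probe sets. The fit without the lowest 50% of probe sets therefore left it out. When the number that opens each title was added as a covariate, RHOU was not called at 1 week (-0.48, adjusted p = 0.0644) or at 1 year (-0.35, adjusted p = 0.0696); the labels do not give the meaning of this number.

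RHOJ, a CDC42-like protein that is abundant in endothelial cells, had less femoral than brachial signal in 12 of 15 pigs (-0.38 ± 0.08, adjusted p = 0.0019). At 1 year the brachial levels ran from 10.48 to 10.88 with a median of 10.67 and the femoral levels from 9.87 to 10.21 with a median of 10.04, so that every femoral array lay below every brachial one. The difference at that age was -0.65 ± 0.09 (1.57-fold, adjusted p = 0.000145, lower in 6 of 6 pigs). At 1 week the brachial levels were 10.32, 10.34, 10.48 and 10.73 and the femoral levels 10.23, 10.37, 10.38 and 10.50, which overlap. At 2 years they were 10.12, 10.34, 10.68, 10.74 and 10.77 in the brachial and 9.95, 10.13, 10.18, 10.35 and 10.57 in the femoral artery, and these overlap too. Neither age was called (-0.10 ± 0.11, adjusted p = 0.667, and -0.30 ± 0.10, adjusted p = 0.0762). In dissected vessels fewer cells of a type and less RNA per cell cannot be told apart. At 1 year 1 of the 7 measured endothelial markers passed as higher in the femoral artery and 1 as lower, with array means of 7.95 to 8.73 in the brachial and 8.43 to 8.86 in the femoral artery. Of the 7 measured adventitial fibroblast markers 4 were called lower at that age, with array means of 11.29 to 11.59 and 10.93 to 11.12, and 2 of the 5 measured Schwann and nerve markers, with array means of 7.93 to 8.29 and 7.68 to 7.98. Over all ages 5 of the adventitial and 3 of the Schwann and nerve markers were called lower in the femoral artery. Their part in the RHOU, RHOJ and ARF6 values was not tested.

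RHOG, which signals to RAC and is used by leukocytes and endothelium during transmigration, had more femoral than brachial signal in 13 of 15 pigs (0.26 ± 0.05, adjusted p = 0.00181). At 2 years its brachial levels were 9.87, 9.88, 10.11, 10.36 and 11.47 and its femoral levels 10.12, 10.14, 10.73, 11.00 and 11.62. The ranges overlap because the pigs differ widely, but each pig was higher in its femoral artery (0.38 ± 0.09, adjusted p = 0.00898). Without pigs 9994, 9995 and 9997 the difference over all ages was 0.21 (adjusted p = 0.008) and that at 2 years 0.26 (adjusted p = 0.289). The 2-year call also ended without pig 9994 alone (adjusted p = 0.0547) or pig 9995 alone (adjusted p = 0.0628). A random pig block (adjusted p = 0.188) or none (adjusted p = 0.569) ended it too. Over all ages the call ended with the pig as a random block (adjusted p = 0.0878) and without a block (adjusted p = 0.281), and its alternatives ranged from adjusted p = 0.000887 to 0.281. Of the 9 macrophage and monocyte markers 8 were called higher in the femoral artery at 2 years, with array means of 8.06 to 11.54 in the brachial and 8.69 to 11.82 in the femoral artery, and their part in the RHOG and RAP2B values was not tested.

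RAB18, which sits on lipid droplets and the endoplasmic reticulum, had a higher femoral level in 13 of 15 pigs (0.16 ± 0.04, adjusted p = 0.0195). At 1 year all 6 pigs were higher, by 0.22 to 0.36, and the difference was called (0.29 ± 0.05, adjusted p = 0.00236), though not without the pig block (adjusted p = 0.0816). At 1 week the levels were 11.55, 11.66, 11.73 and 11.82 in the brachial and 11.81, 11.85, 11.86 and 11.89 in the femoral artery. At 2 years they were 11.47, 11.76, 11.85, 11.94 and 12.06 against 11.50, 11.75, 11.93, 11.94 and 11.95. All 4 pigs at 1 week were higher in the femoral artery without a call (adjusted p = 0.146), and at 2 years the pigs' differences lay between -0.11 and 0.08. RAB3D, a RAB of regulated secretion, was higher in 13 of 15 pigs (0.17 ± 0.05, adjusted p = 0.0217) and was not called with the title number as a covariate (0.13, adjusted p = 0.28). RAB18 was not called under that covariate either (adjusted p = 0.13), nor without the pig block (adjusted p = 0.104). Over all alternatives adjusted p lay between 0.00726 and 0.28 for RAB3D and between 0.00942 and 0.13 for RAB18.

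ARF6, the ARF protein of the plasma membrane and of endocytic recycling, had a lower femoral level in 14 of 15 pigs (-0.15 ± 0.04, adjusted p = 0.018). The ARF6 call was lost when the block was dropped (adjusted p = 0.0721) or the title number was added (adjusted p = 0.144). It was called at 1 year, where the 6 pigs' differences ran from -0.50 to -0.08 with a median of -0.13 (-0.23 ± 0.06, adjusted p = 0.0391). The 1-year call ended without pig 9175, 9176, 9188 or 9193, with adjusted p = 0.0699, 0.0516, 0.151 and 0.169. It was lost as well when the block was dropped (adjusted p = 0.196), when the title number was added (adjusted p = 0.116) and without pigs 9994, 9995 and 9997 (adjusted p = 0.0558). The 3 probe sets of RAB1A, which acts between endoplasmic reticulum and Golgi, differed. The one used was lower (-0.14 ± 0.04, adjusted p = 0.0421) and the other 2 were not called (-0.11, adjusted p = 0.343, and 0.07, adjusted p = 0.311). RHOQ, also known as TC10 and linked to exocytosis and glucose transport, was lower by a small amount (-0.12 ± 0.04, adjusted p = 0.0344). The RAB1A and RHOQ calls were the least secure, since RAB1A was called in 11 of 22 alternatives and RHOQ in 10 of 22, with adjusted p of 0.0211 to 0.383 and 0.0189 to 0.368. RAB23, a RAB known as a brake on hedgehog signalling, was not called with the probe set used (-0.12 ± 0.04, adjusted p = 0.0522), while its other 2 probe sets were lower in the femoral artery (-0.22, adjusted p = 0.000979, and -0.24, adjusted p = 0.000538). RAB23 was singled out after its values were seen.

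**Figure D1:**
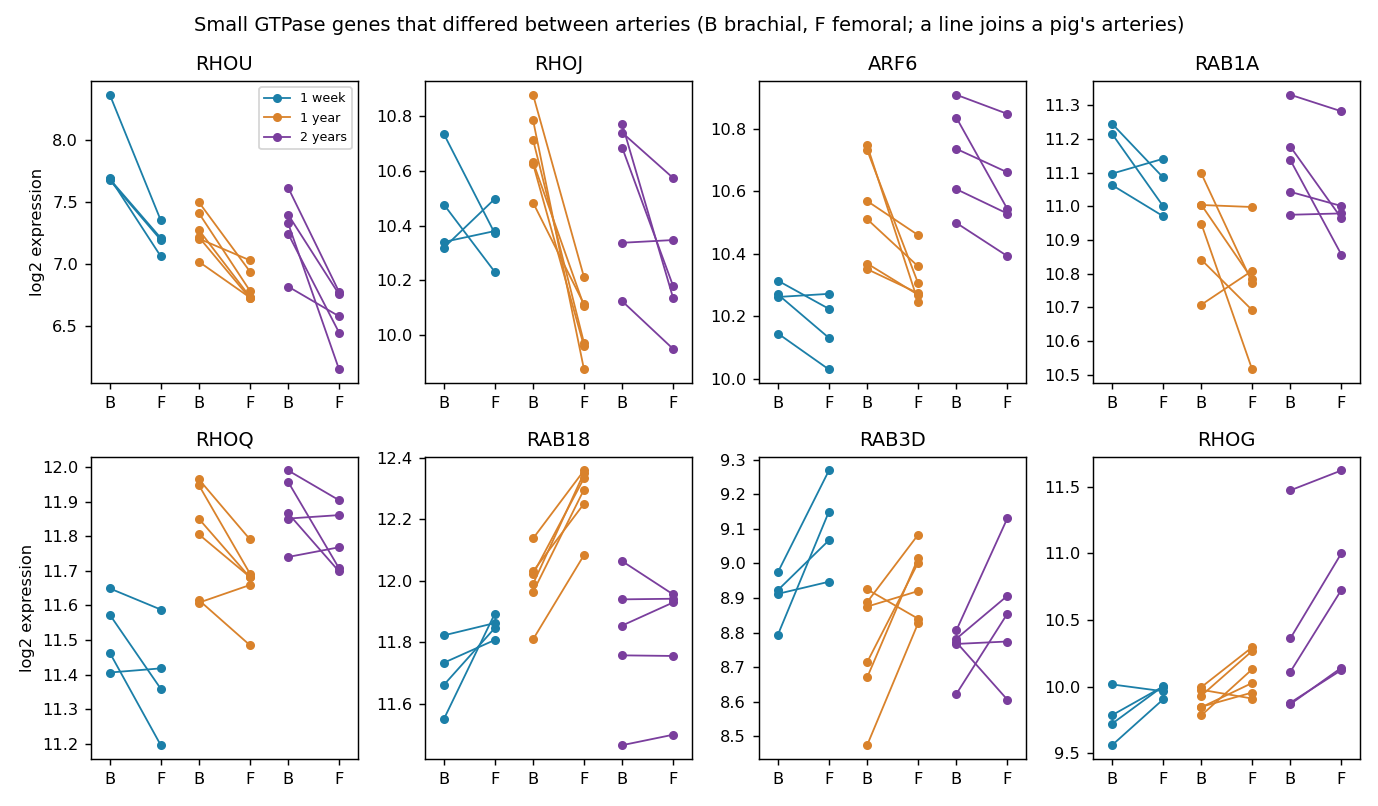
Log2 expression of the 8 small GTPase genes called between the arteries over all ages, for each of 15 pigs, with a line from the brachial (B) to the femoral (F) artery of a pig and colours for age; each panel has its own vertical scale. The RHOU lines fall in all 15 pigs, the RHOJ lines fall in all 6 pigs at 1 year, and the RAB18 lines rise in all 6 pigs at 1 year and lie between -0.11 and 0.08 at 2 years.

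Genes often taken as representatives of these families did not pass the test between arteries over all ages. RHOA, the activator of the ROCK kinases, was at 0.02 ± 0.05 (adjusted p = 0.843), and RAC1, which drives lamellipodia, at 0.07 ± 0.04 (adjusted p = 0.314). RHOB, an endosomal relative of RHOA of rapid turnover, was higher in 12 of 15 pigs without a call (0.14 ± 0.05, adjusted p = 0.0855). RAC2, the RAC protein of blood cells, was at -0.07 ± 0.09 (adjusted p = 0.705). RAB7A, the RAB of late endosomes, was at 0.05 ± 0.04, RAB11A, of recycling endosomes, at -0.05 ± 0.05, ARF1, of Golgi coats, at -0.06 ± 0.04, and RAP1B, of integrin activation, at -0.11 ± 0.06.

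**Figure D2:**
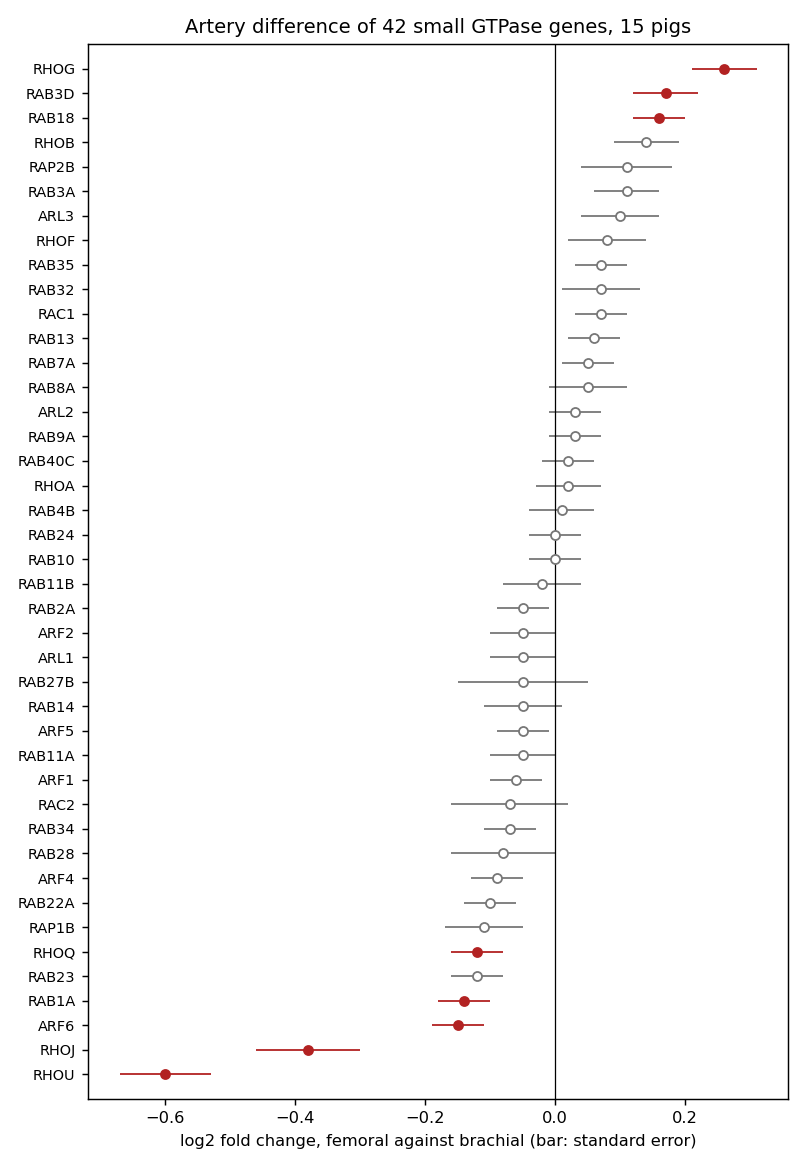
Log2 fold change of femoral against brachial over all ages for the 42 small GTPase genes (horizontal axis, with the standard error as bar, n = 15 pigs); filled red points had an adjusted p under 0.05 and open grey points did not. RHOU at -0.60 and RHOJ at -0.38 lie farthest below 0, and RHOG at 0.26 farthest above.

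Within single ages few of the genes were called. At 1 week 1 was higher and 1 lower, against a background of 4.53% and 4.23% of all probe sets. At 1 year 1 was higher and 3 lower (background 3.41% and 3.59%), and at 2 years 2 were higher and 1 lower (background 4.48% and 3.5%). The 1-week increase was that of RAB13, a RAB of junction assembly. Its brachial levels were 10.13, 10.15, 10.18 and 10.28 and its femoral levels 10.39, 10.39, 10.40 and 10.50, with no overlap (0.23 ± 0.06, adjusted p = 0.0302). The call ended without pig 9481 (adjusted p = 0.118), 9483 (adjusted p = 0.112) or 9485 (adjusted p = 0.0848). Dropping the block (adjusted p = 0.136) or adding the title number (0.18, adjusted p = 0.238) ended it too. Of the 8 smooth muscle markers 4 were called higher in the femoral artery at 1 week, with array means of 12.58 to 13.26 in the brachial and 13.25 to 13.41 in the femoral artery, and their part in the RAB13 value was not tested. The 2-year increase beside RHOG was that of RAP2B, a RAP protein of platelets and other cells. Its differences were -0.05, 0.35, 0.77, 0.55 and 0.05 in pigs 9006, 9007, 9994, 9995 and 9997 (0.33 ± 0.10, adjusted p = 0.0431), and 2 pigs hardly differed. The RAP2B call held in 9 of 22 alternatives, with adjusted p from 0.0139 to 0.634. Without pigs 9994, 9995 and 9997 the RAP2B value was 0.15 (adjusted p = 0.606). The counts are of the probe sets used, and other probe sets of some uncalled genes were called. At 1 week a further RAB10 probe set was higher (0.43, adjusted p = 0.00637) and a further RAB24 probe set lower (-0.49, adjusted p = 0.00558). The remaining RAB10 probe sets were not called. Both other RAB23 probe sets were lower at 2 years (-0.30 and -0.29, adjusted p = 0.00919 and 0.0161), and 1 of them at 1 year (-0.23, adjusted p = 0.038).

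Whether the artery difference itself changed with age was tested directly, and none of the 42 genes was called in this limma test (background 4.06% of all probe sets), although 12 had an unadjusted p under 0.05, against 20.1% of all probe sets. RHOA had the smallest adjusted p (0.0572). Its femoral minus brachial differences were 0.29, 0.38, 0.21 and -0.01 at 1 week and 0.03, -0.11, 0.18, 0.12 and 0.17 at 2 years, whereas at 1 year the femoral level was lower in all 6 pigs, by -0.30 to -0.10. RHOJ (adjusted p = 0.0619) and RAB18 (adjusted p = 0.0969) came next. When the lowest 50% of the probe sets by mean level was left out, so that fewer were tested, these 3 genes were called. RAB14, a RAB between Golgi and endosomes, had its lower level on the femoral side in all 4 pigs at 1 week and its higher level there in all 5 at 2 years (adjusted p = 0.153 for the difference between ages). RAC2 was higher in all 6 pigs at 1 year by 0.01 to 0.36, and at 2 years its differences were 0.27, 0.00, -0.60, -0.99 and -0.71 in pigs 9006, 9007, 9994, 9995 and 9997 (adjusted p = 0.161 for the difference between ages). RAB14 and RAC2 are named here after their values were seen.

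The second comparison asked how the levels change with age, on the mean of both arteries of each pig. Between 1 week and 1 year 15 of the 42 genes rose and 11 fell, with background shares of 24.7% and 20.2%. Between 1 week and 2 years 11 rose and 9 fell (background 24.1% and 25.8%). The shares of the small GTPase genes were 35.7% and 26.2% in the first of these and 26.2% and 21.4% in the second. Those of genes with a symbol were 26.9% and 22.5%, and 30.9% and 23.9%, in a table in which much changed. Whether the small GTPase genes differ from these shares was not tested. Of the 23 RAB genes 11 rose and 4 fell by 1 year, and of the 8 ARF and ARL genes 2 rose and 5 fell. The levels of the 1-week and 1-year pigs did not overlap for 22 of 42 genes (38.7% of all probe sets), and those of the 1-week and 2-year pigs for 17 (37.9%). Every value against 1 week carries the change of RNA isolation with it. Markers of cell types moved in the same comparisons, and their part in the values below was not tested. At 1 year 6 of the 8 smooth muscle markers were called higher than at 1 week, with array means of 12.58 to 13.41 at 1 week and 13.52 to 13.86 at 1 year, and 1 of the 7 endothelial and 1 of the 9 macrophage and monocyte markers. At 2 years 5 of 8 smooth muscle, 5 of 7 endothelial, 8 of 9 macrophage and monocyte and 9 of 10 lymphocyte markers were called higher than at 1 week.

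Among the endosomal RABs, RAB11B, a recycling RAB, had the largest rise by 1 year. Its pig means were 10.17, 10.31, 10.39 and 10.43 at 1 week, 11.12 to 11.33 with a median of 11.24 at 1 year, and 11.13, 11.19, 11.23, 11.33 and 11.38 at 2 years. The older groups lay wholly above the 1-week pigs and overlapped each other (0.90 ± 0.07, 1.87-fold, adjusted p = 1.21e-07, and 0.93 ± 0.07, adjusted p = 1.24e-07). Both RAB11B probe sets were called in both comparisons. RAB7A had the same shape: 10.37, 10.50, 10.52 and 10.54 at 1 week, 10.90 to 11.15 with a median of 11.03 at 1 year, and 11.00, 11.07, 11.07, 11.08 and 11.29 at 2 years (0.54 ± 0.07 and 0.62 ± 0.07 against 1 week). RAB4B, a RAB of early recycling, rose by 0.24 ± 0.07 by 1 year and 0.45 ± 0.07 by 2 years. RAB22A, of early endosomes, rose by 0.17 ± 0.06 and 0.21 ± 0.07, and RAB9A, of transport from late endosomes to the Golgi, changed by -0.28 ± 0.06 and -0.32 ± 0.07. The other RAB9A probe set was called lower at 2 years (-0.29, adjusted p = 0.00165) and not at 1 year (-0.03, adjusted p = 0.773). The 1-year RAB4B call ended in the brachial arrays alone (0.26, adjusted p = 0.086), and the 2-year RAB22A call in the femoral arrays alone (0.11, adjusted p = 0.238), without pigs 9994, 9995 and 9997 (adjusted p = 0.0591) and without pig 9481 (adjusted p = 0.0533). RAB11A was not called against 1 week at either age with the probe set used (-0.06 ± 0.09 and 0.16 ± 0.09). Its other probe set was called higher in both (0.32 ± 0.10 and 0.39 ± 0.10). RAB2A, RAB10 and RHOF were not called against 1 week either, although other probe sets of theirs were. At 1 and 2 years these were lower for RAB2A (-0.43 and -0.69) and RAB10 (-0.59 and -0.47). A further RAB10 probe set was lower at 1 year alone (-0.36). Of RHOF 2 were higher at both ages (0.56 and 0.41, then 0.32 and 0.27). The remaining probe sets of RAB10 and RHOF were not called.

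RAB3A, a RAB of regulated exocytosis, rose by 0.39 ± 0.08 by 1 year, and RAB8A, of exocytosis and cilia, by 0.26 ± 0.09. The RAB8A call at 1 year (adjusted p = 0.0338) ended in the femoral arrays alone (0.15, adjusted p = 0.235) and as the mean of its probe sets (adjusted p = 0.0625). It also ended without pig 9175, 9176, 9192, 9237, 9483 or 9485 (adjusted p of 0.054 to 0.118). The other RAB8A probe set was not called at 1 year (0.13, adjusted p = 0.282). At 2 years both RAB8A probe sets were called higher than at 1 week (0.40 and 0.61, adjusted p = 0.00279 and 0.000135). That call of the probe set used held in 20 of 21 alternatives, but not in the femoral arrays alone (0.22, adjusted p = 0.0791). RAB3A at 2 years was at 0.22 against 1 week (adjusted p = 0.0461), called in 8 of 21 alternatives. RAB27B, which docks secretory granules and exosome-forming endosomes, rose by 0.79 ± 0.20 by 1 year, with pig means of 6.07, 6.28, 6.29 and 6.48 at 1 week and 6.40 to 7.54 at 1 year, which overlap. The rise of RAB27B was 0.46 in the femoral arrays alone (adjusted p = 0.144). RAB18 and RAB14 rose by 0.36 ± 0.09 and 0.30 ± 0.09, and RAB14 was not called in the brachial arrays alone (0.19, adjusted p = 0.184). RAB28, a RAB of cilia and photoreceptors, had the largest fall, from 8.83, 8.98, 9.01 and 9.08 at 1 week to 7.96 to 8.40 with a median of 8.24 at 1 year (-0.74 ± 0.09, adjusted p = 1.06e-05). At 2 years RAB28 stood at 8.26, 8.41, 8.50, 8.56 and 8.59 (-0.51 ± 0.09 against 1 week), still below every 1-week pig, and its other probe set was called lower in both. RAB13 fell by 0.39 on the log2 scale by 1 year (adjusted p = 0.00026). At 2 years RAB13 was at -0.18 against 1 week (adjusted p = 0.0495) and RAB3D at -0.20 (adjusted p = 0.0324). These calls held in 8 and 13 of 22 alternatives. They ended without pigs 9994, 9995 and 9997 (adjusted p = 0.481 and 0.4). The RAB1A probe sets went opposite ways at 1 year, with -0.25 ± 0.07 for the one used and 0.26 ± 0.10 for another, both called. RAB35 and RAB40C rose slightly by 1 year (0.19 ± 0.07 and 0.18 ± 0.05). They and RAB22A at 1 year lie outside the 12 largest changes and were named after their values were seen. At 2 years RAB40C was below its 1-week level (-0.23 ± 0.05, adjusted p = 0.00267), though not called without pigs 9994, 9995 and 9997 (-0.16, adjusted p = 0.0645). At 2 years another probe set of RAB35 and another of RAB1A were called higher than at 1 week (0.23 and 0.36), unlike the ones used.

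ARL2, which acts on tubulin folding and as a release factor for lipidated cargo, rose at each step. Its pig means were 9.21, 9.23, 9.23 and 9.36 at 1 week, 9.68 to 9.87 with a median of 9.80 at 1 year, and 9.97, 10.08, 10.09, 10.09 and 10.12 at 2 years. No 2 ages overlapped. The log2 fold change was 0.54 ± 0.05 between 1 week and 1 year (adjusted p = 1.46e-06), 0.81 ± 0.06 between 1 week and 2 years (adjusted p = 3.23e-08) and 0.27 ± 0.05 between the older ages (adjusted p = 0.00119). ARF6 rose by 0.23 ± 0.08 and 0.45 ± 0.08 against 1 week. The first of these calls (adjusted p = 0.0285) ended in the femoral arrays alone (0.16, adjusted p = 0.176), under quantile normalization (adjusted p = 0.0676) and without pig 9176, 9188, 9193, 9485 or 9487 (adjusted p of 0.0541 to 0.0979). Fewer of the ARF genes rose than fell: ARF2 changed by -0.49 ± 0.11 and -0.51 ± 0.11, ARF5 by -0.19 ± 0.06 and -0.19 ± 0.06, and ARF4 by -0.29 ± 0.08 at 1 year. ARL1, a Golgi GTPase that recruits golgins, changed by -0.43 ± 0.06 and -0.31 ± 0.07, and ARL3, of cilia, by -0.35 ± 0.10 at 1 year. ARL3 was not called in the femoral arrays alone (-0.18, adjusted p = 0.218). ARF5 was not called in the brachial arrays alone at either age (adjusted p = 0.104 and 0.106), nor at 2 years without pigs 9994, 9995 and 9997 (adjusted p = 0.119) or without pig 9487 (adjusted p = 0.0556). ARF1 was not called in any age comparison, with values of 0.05 ± 0.05, 0.05 ± 0.05 and 0.00 ± 0.04.

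Among the RHOA-related genes, RHOU changed by -0.48 ± 0.11 by 1 year (adjusted p = 0.00271) and by -0.62 ± 0.12 by 2 years (adjusted p = 0.000495). Its pig means were 7.38, 7.43, 7.45 and 7.86 at 1 week, 6.87 to 7.22 at 1 year and 6.70, 6.74, 6.85, 7.08 and 7.20 at 2 years, and neither older group overlapped the 1-week pigs. The other RHOU probe set was not called at 1 year (-0.33 ± 0.14, adjusted p = 0.0709) and was called lower at 2 years (-0.47 ± 0.15, adjusted p = 0.0165). RHOQ rose by 0.28 ± 0.07 and 0.38 ± 0.08 against 1 week. RHOB rose by 0.37 ± 0.11 at 1 year, and its other 2 probe sets by 1.07 and 1.11. RAP1B fell by 0.34 on the log2 scale at 1 year (adjusted p = 0.0313). That call ended in the brachial arrays alone (adjusted p = 0.0761), in the femoral arrays alone (adjusted p = 0.0693) and without pig 9176, 9188, 9192, 9193, 9481, 9483 or 9485 (adjusted p of 0.0518 to 0.0742). RHOA and RAC1 were not called at 1 year (-0.03 ± 0.08 and 0.08 ± 0.12) or at 2 years against 1 week (0.20 ± 0.08, adjusted p = 0.0535, and 0.20 ± 0.12, adjusted p = 0.182).

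**Figure D3:**
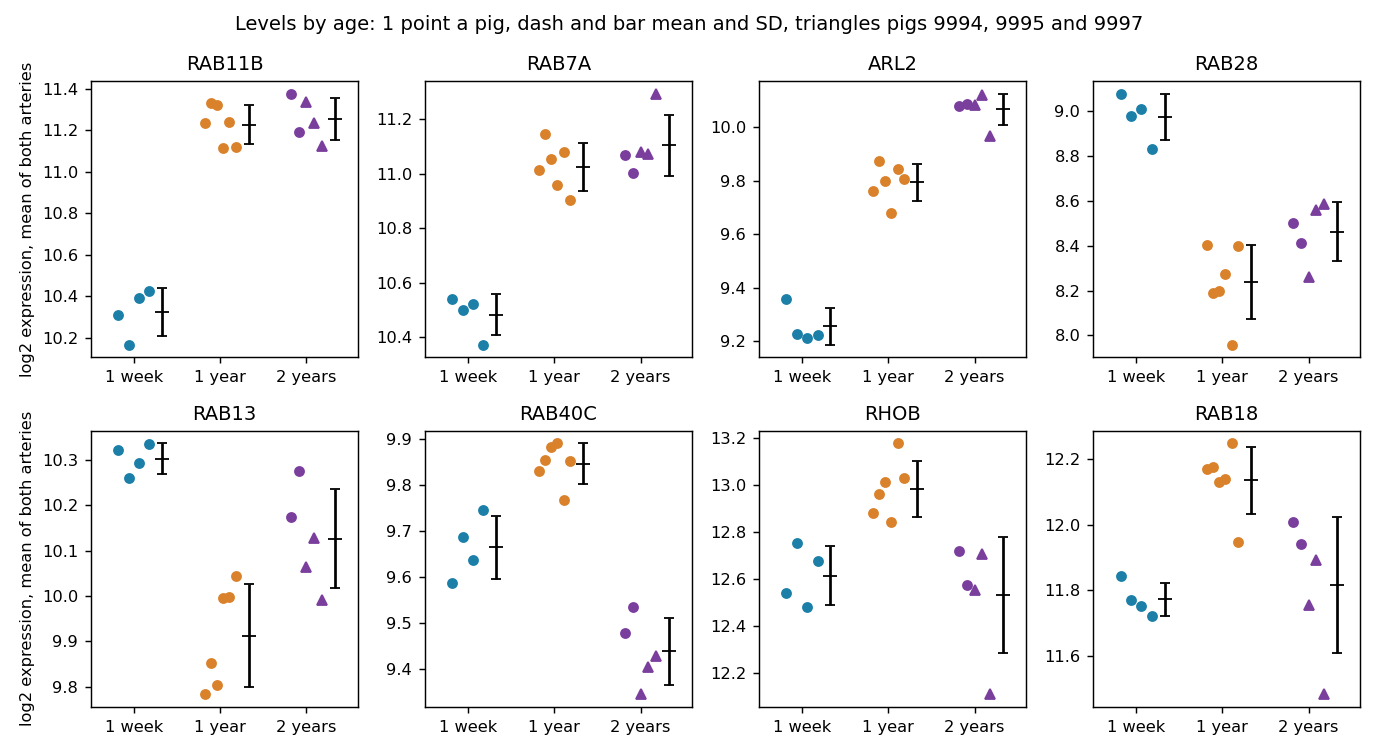
Log2 expression of 8 small GTPase genes as the mean of both arteries of each pig (1 point a pig; 4, 6 and 5 pigs), with the mean and SD of each age as dash and bar and triangles for pigs 9994, 9995 and 9997; each panel has its own vertical scale. RAB11B and RAB7A are low at 1 week and overlap at 1 and 2 years, ARL2 rises from 9.21 to 9.36 at 1 week to 9.97 to 10.12 at 2 years, and RAB40C and RHOB are highest at 1 year.

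The 1-year and 2-year pigs had the same RNA isolation. Between these ages 12 of the 42 genes rose and 4 fell, against background shares of 12.9% and 19.8%, or 28.6% and 9.52% of the small GTPase genes. Of genes with a symbol 20.7% rose and 16.4% fell. The median log2 fold change was 0.061 for the small GTPase genes, 0.021 for genes with a symbol and -0.035 over all probe sets. Without pigs 9994, 9995 and 9997, which leaves 2 pigs at 2 years, 7 genes were called, and 4 of the 16 were among them: ARL2, RAB13, RAB40C and RHOB. The share of all probe sets called was then 16.6%. Only 3 of the 42 genes had no overlap between these ages, ARL2, RAB40C and RHOB, against 17.3% of all probe sets.

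RAB40C, a RAB that carries a SOCS box and joins a ubiquitin ligase, was lower at 2 years than at 1 year. Its pig means ran from 9.77 to 9.89 with a median of 9.85 at 1 year and were 9.34, 9.40, 9.43, 9.48 and 9.53 at 2 years. The log2 fold change was -0.41 ± 0.05 (1.33-fold, adjusted p = 7.79e-05), and -0.34 (adjusted p = 0.00439) without pigs 9994, 9995 and 9997. RHOB ran from 12.84 to 13.18 with a median of 12.99 at 1 year and was 12.11, 12.55, 12.58, 12.71 and 12.72 at 2 years. It fell by 0.45 on the log2 scale (adjusted p = 0.00404), its other 2 probe sets were at -0.85 and -1.22, and without the 3 pigs the value was -0.34 (adjusted p = 0.0317). RAB13 rose by 0.21 ± 0.06 (adjusted p = 0.019), and by 0.31 without the 3 pigs. It was not called in the femoral arrays alone (0.18, adjusted p = 0.0885). RAB18 and RAB27B fell, with -0.32 ± 0.08 and -0.57 ± 0.19, and were not called without those pigs (-0.16, adjusted p = 0.17, and -0.69, adjusted p = 0.0843). RAB18 was not called in the brachial arrays alone (-0.18, adjusted p = 0.218), nor RAB27B in the femoral arrays alone (-0.47, adjusted p = 0.13). The RAB27B call also ended without pig 9006, 9175, 9188, 9237 or 9997 (adjusted p of 0.0566 to 0.0649).

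**Figure D4:**
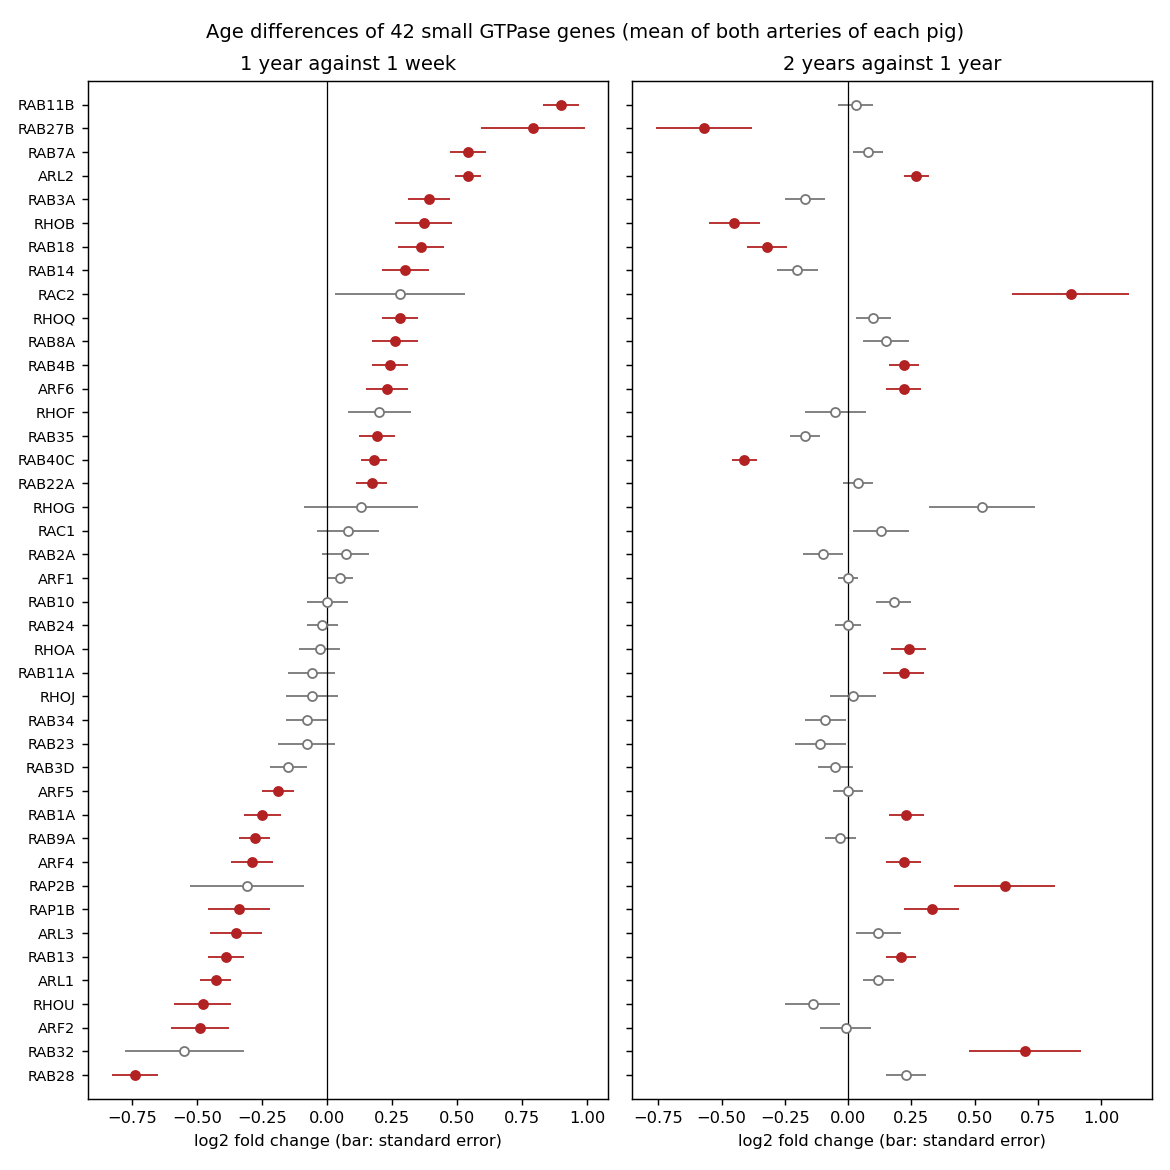
Log2 fold change with standard error of the 42 small GTPase genes for 1 year against 1 week (left) and 2 years against 1 year (right), sorted by the left panel; filled red points had an adjusted p under 0.05 and open grey points did not. ARL2 is called higher in both panels, RAB27B, RHOB, RAB18 and RAB40C are called higher in the left and lower in the right, and RAC2, RAB32 and RAP2B have wide bars.

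The largest rise between 1 and 2 years was that of RAC2, which assembles the oxidase of phagocytes. Its pig means ran from 6.74 to 7.15 at 1 year, and at 2 years they were 7.07, 6.997, 8.37, 8.09 and 8.50 in pigs 9006, 9007, 9994, 9995 and 9997. The first 2 lay within the 1-year range and the other three above it (0.88 ± 0.23, adjusted p = 0.0103; 0.11, adjusted p = 0.431, without the 3 pigs). Against 1 week RAC2 was called with all pigs (1.16 ± 0.26, 2.24-fold, adjusted p = 0.00169) and without the 3 pigs (0.39, adjusted p = 0.00457). RAP2B was at 9.47, 9.37, 9.95, 9.96 and 10.95 in the same order of pigs, against 9.24 to 9.46 at 1 year (0.62 ± 0.20, adjusted p = 0.0303; 0.10, adjusted p = 0.45, without them). RAB32, a RAB of lysosome-related organelles and of phagosomes, was at 7.88, 8.001, 8.54, 8.66 and 9.60, against 7.71 to 7.97 at 1 year (0.70 ± 0.22, adjusted p = 0.0234; 0.11, adjusted p = 0.356, without them). In all 3 genes pig 9997 was highest. The RAC2 call held when any single pig was left out. The RAB32 call ended without pig 9995 (adjusted p = 0.0507), in the brachial arrays alone (0.59, adjusted p = 0.0684) and as the mean of its probe sets (0.52, adjusted p = 0.0613). The other RAB32 probe set was not called (0.34, adjusted p = 0.194). The RAP2B call ended in the brachial arrays alone (0.40, adjusted p = 0.209) and without pig 9188, 9192, 9193, 9237, 9994 or 9995 (adjusted p of 0.0516 to 0.0569).

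RHOG was at 10.002, 10.004, 10.68, 10.42 and 11.55 in these pigs and at 9.90 to 10.15 at 1 year. It was not called between 1 and 2 years (0.53 ± 0.21, adjusted p = 0.0604), and its call against 1 week (0.66 ± 0.23, adjusted p = 0.0258) ended without the 3 pigs (0.13, adjusted p = 0.233), and without pig 9483, 9485 or 9994 alone (adjusted p = 0.0651, 0.0513 and 0.0534). RHOA rose by 0.24 ± 0.07 (adjusted p = 0.0245) and RAP1B by 0.33 ± 0.11 (adjusted p = 0.0372) between 1 and 2 years, with 0.11 (adjusted p = 0.37) and 0.11 (adjusted p = 0.395) without those pigs. The RHOA call ended without pig 9188, 9237, 9995 or 9997 (adjusted p of 0.0525 to 0.0602), and the RAP1B call without pig 9176, 9188, 9192, 9193, 9995 or 9997 (adjusted p of 0.0544 to 0.0721). In the brachial arrays alone neither RHOA (0.12, adjusted p = 0.299) nor RAP1B (0.26, adjusted p = 0.128) was called. RAB1A, RAB4B, ARF4, ARF6 and RAB11A rose by 0.22 to 0.23. These were not called without pigs 9994, 9995 and 9997 either, nor in the brachial arrays alone. For RAB1A a further probe set was lower (-0.26, adjusted p = 0.00675). Pig means of the 9 macrophage and monocyte markers were 8.48, 8.60, 10.30, 10.31 and 11.68 in pigs 9006, 9007, 9994, 9995 and 9997, and those of the 10 lymphocyte markers 5.78, 5.79, 7.14, 7.09 and 7.04. Of the former list 7 and of the latter 10 were called higher at 2 years than at 1 year. Their part in the values of RAC2, RAP2B, RAB32, RHOG, RHOA and RAP1B was not tested.

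**Figure D5:**
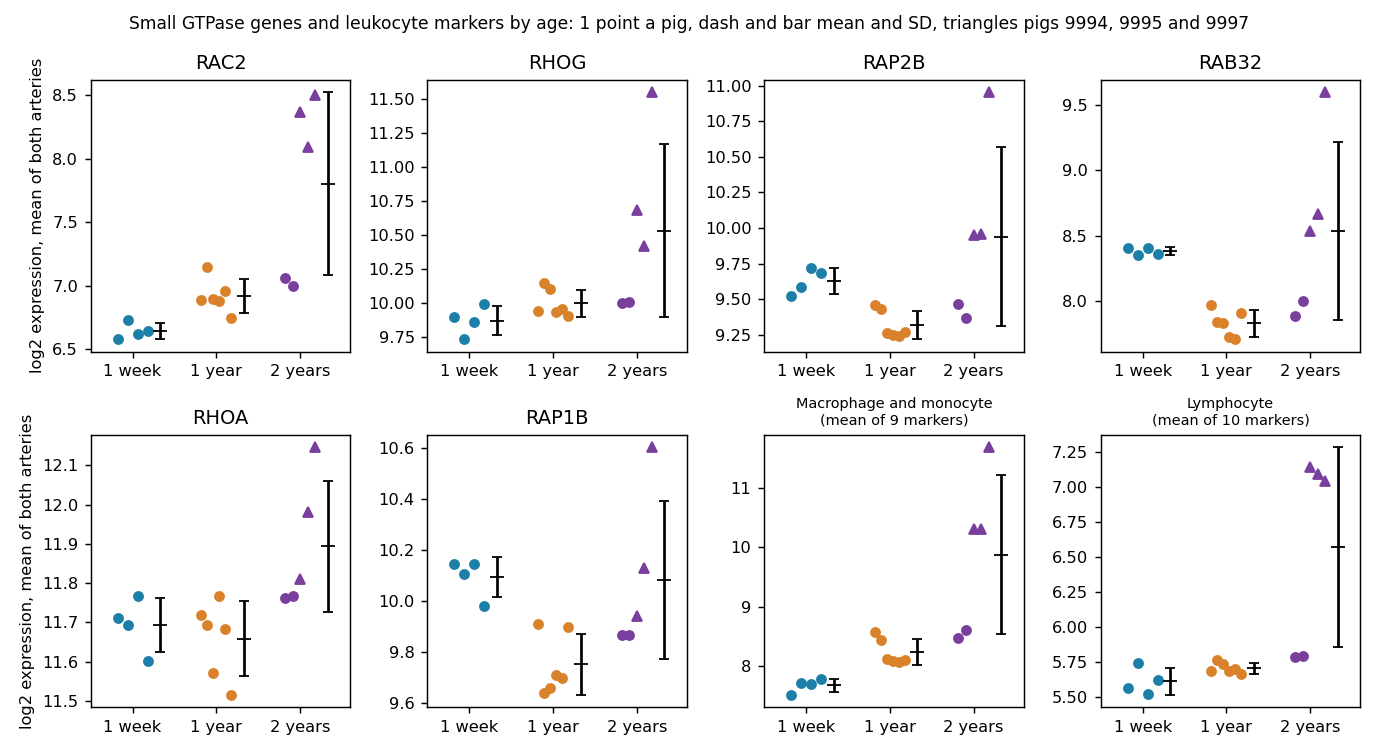
Log2 expression of 6 small GTPase genes and the mean of 9 macrophage and monocyte and 10 lymphocyte markers, as the mean of both arteries of each pig by age (1 point a pig), with mean and SD as dash and bar and triangles for pigs 9994, 9995 and 9997; each panel has its own vertical scale. For RAC2, RHOG, RAP2B and RAB32 the triangles lie above the other pigs aged 1 and 2 years, as they do for both marker means.

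The proteins that act on small GTPases were counted from lists chosen with earlier results of these data known, and were not tested as sets. The background for the artery counts is again 6.57% higher and 5.99% lower among all probe sets. Among genes with a symbol, from which the lists were drawn, it is 7.95% and 5.02%. The short lists make each share depend on few genes. Of the 5 measured dissociation inhibitors 1 was higher in the femoral artery: ARHGDIB, the inhibitor of RHOA-related proteins in blood cells (0.47 ± 0.05, adjusted p = 1.91e-06), which was called at every age. Over all ages 4 of the 9 macrophage and monocyte markers were called higher in the femoral artery too, and their part in the ARHGDIB value was not tested; without pigs 9994, 9995 and 9997 it was 0.48 (adjusted p = 1.21e-06). Between 1 and 2 years ARHGDIB rose by 1.46 ± 0.20, and by 0.88 (adjusted p = 0.000744) without the 3 pigs in which the macrophage and lymphocyte markers were high. ARHGDIA, the inhibitor found in most cells, rose by 0.58 ± 0.14 between these ages and was not called without those pigs (0.28, adjusted p = 0.127). GDI2, the RAB inhibitor, changed by -0.61 ± 0.07 between 1 week and 1 year. Of 23 exchange factors 5 were higher and 2 lower in the femoral artery. Their median was 0.08, against 0.016 for genes with a symbol and 0.003 over all probe sets. RAPGEF1, which activates RAP1, was higher (0.28 ± 0.04), as was RIN3, which activates RAB5 (0.24 ± 0.04). RAB3IP, the RAB8 activator known as Rabin8, was lower, by -1.11 ± 0.11 at 1 week and -0.43 ± 0.09 at 1 year. At 2 years RAB3IP was not called, and its artery difference depended on age (adjusted p = 0.00168). Of 34 GTPase activating proteins 4 were higher and 2 lower in the femoral artery, with a median of 0.04. DLC1, which switches off RHOA, was higher (0.41 ± 0.08), as was RACGAP1, of the cytokinetic ring (0.35 ± 0.07).

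Of 22 effectors of RAC and RHOA-related proteins 2 were higher and 3 lower in the femoral artery, with a median of 0.05. The cytokinesis kinase CIT (0.45 ± 0.08) and the actin regulator WASF1 (0.43 ± 0.09) were higher, and BAIAP2 (-0.30 ± 0.06) and CDC42EP3 (-0.34 ± 0.07), which bind CDC42, were lower. Of 45 effectors, tethers and coats of RAB, ARF and RAP proteins 6 were higher and 0 lower, with a median of 0.05. The 6 included MYO5B, a myosin motor that RAB11 proteins bring to vesicles, at 1.16 ± 0.12, called at every age. GGA2 (0.38 ± 0.05) and GGA1 (0.19 ± 0.04), adaptors that ARF proteins bring to the Golgi, were among the 6. Of 20 other small GTPases 2 were higher and 2 lower, with a median of -0.01: RND3, which opposes RHOA (0.36 ± 0.08), and RHOBTB1 (0.22 ± 0.06; 0.15, adjusted p = 0.0724, without the 3 pigs) were higher, and GEM (-0.51 ± 0.08) and RERG (-0.73 ± 0.12), both of the RAS superfamily, were lower. None of 7 measured prenylation and isoprenoid genes was called over all ages, with a median of 0.01, but FDPS, which makes farnesyl diphosphate, was lower at 1 year (-0.42 ± 0.09) and at 2 years (-0.40 ± 0.10; -0.47, adjusted p = 0.0986, without the 3 pigs).

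With age the regulators moved in both directions as well. Between 1 week and 1 year 24.7% of all probe sets rose and 20.2% fell, and of genes with a symbol 26.9% and 22.5%. Of the 22 effectors of RAC and RHOA-related proteins 8 rose and 6 fell, with IQGAP3 (-2.37 ± 0.13) and CIT (-1.88 ± 0.14) among the latter. Of the 34 GTPase activating proteins 6 rose and 6 fell, with RACGAP1 (-2.69 ± 0.17) among the latter. IQGAP3, CIT and RACGAP1 all act in dividing cells. Of the 45 effectors, tethers and coats 10 rose and 7 fell, with EEA1, the RAB5 tether of early endosomes, at 0.93 ± 0.10 and EXOC6, an exocyst subunit that binds RAB11, at -0.96 ± 0.08. Between 1 and 2 years 12.9% of all probe sets rose and 19.8% fell, and of genes with a symbol 20.7% and 16.4%. In that comparison 8 of the 22 effectors of RAC and RHOA-related proteins rose and 3 fell, against 4 and 2 without pigs 9994, 9995 and 9997. ROCK2, the kinase downstream of RHOA, was among those that fell (-0.76 ± 0.14; -0.54, adjusted p = 0.0133, without the 3 pigs). CFL1, the actin-severing protein at the end of that route, rose by 0.41 ± 0.07 (0.30, adjusted p = 0.0412, without them). GEM fell by 1.22 on the log2 scale between these ages (adjusted p = 3.45e-05), and its value without them was -1.07 (adjusted p = 0.00122). Of the 23 exchange factors 4 rose and 7 fell, against 2 and 0 without the 3 pigs. FGD4, which activates CDC42, was at 1.00 ± 0.23 (0.46, adjusted p = 0.0325, without them) and ARHGEF12, which activates RHOA, at -0.54 ± 0.12 (-0.30, adjusted p = 0.15, without them).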

How the data were processed

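RNA from both arteries of 15 pigs was hybridised to 30 arrays. The deposited table holds log2 values, inferred from their range of 2.65 to 15.08. Per the submitters' processing notes GCOS 1.4, R 2.3.1 and RMA were used; further steps are not given in the sources used here. Scanner files were not used, so background correction was not repeated.

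After 97 control probe sets were dropped, 19362 remained and all were tested, however low. Of these, 8541 carried 1 gene symbol, 165 several and 10656 none in the array annotation. All 42 genes matched the RefSeq table by identifier, and 17 had over 1 probe set. No sequences or positions were used.

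Tests used limma 3.58.1 in R 4.3.3, two-sided, with Benjamini-Hochberg adjustment over all probe sets at 0.05; figures used Python 3.11.15 and matplotlib 3.10.9. Arteries were compared with the pig as a block, since both come from 1 animal (correlation of deviations r = 0.114 to 0.877 across probe sets, the best match both ways in 13 of 15 pigs). Ages were compared on pig means. The procedure was tested on simulated data. The number of arrays limits precision.

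Called genes were named, at most 12 in each direction per comparison, with RHOA, RHOB, RAC1, RAC2, RAB7A, RAB11A, ARF1, ARF6 and RAP1B always. From each pathway list those called with the 4 smallest p in a comparison could be named. The members and lists were chosen with earlier results of these data known. Alternatives were other blocks, normalization, a low-level filter, means of probe sets, single arteries and leaving out pigs. The pathway genes were also fitted without pigs 9994, 9995 and 9997, an alternative chosen after seeing the data.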

Additional observations from a re-analysis of the deposited data

Results flagged for a closer look

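In 132 groups of small GTPase values at 1 age, a single pig lay far from the nearest other pig relative to the whole range in 10, and chance gives about 1 in 20. Pig 9997, aged 2 years, accounted for most of them. Its mean of both arteries was 9.54 for RAB14, against 9.11 to 9.21 in the other 2-year pigs, 11.31 for RAB1A, 11.29 for RAB7A and 11.54 for RAC1, all above the others. It was 9.97 for ARL2 and 12.11 for RHOB, both below the others. The same pig had the highest macrophage marker mean, at 11.68, and the part of this in these values was not tested. Pig 9995 stood apart in ARF1, with 12.72, and in the femoral minus brachial difference of ARF6, with -0.29. Pig 9481, aged 1 week, stood apart in ARL2, with 9.36, and in RHOU, with 7.86.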

How the results depend on the processing

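Over 22 alternatives at most, 2476 values of single named genes kept their side of the threshold. Of the others 220 kept their direction and lost the call, 12 gained one and 1 called value reversed. Values that were not called could change sign without being counted as reversed. RAC2 femoral against brachial at 2 years was -0.41 ± 0.13 and ran from -0.57 to 0.14 over its alternatives. The reversed value was RAB1A between 1 week and 1 year, at 0.04 (adjusted p = 0.551) as the mean of its 3 probe sets, which go opposite ways. Without a replicate block for the pig, 3 small GTPase genes were called over all ages instead of 8, 1 at 1 week instead of 2, 1 at 1 year instead of 4 and 1 at 2 years instead of 3, and with the pig as a random replicate block 1 at 2 years. With the title number as covariate 3 were called over all ages and 0 at 1 week. The cause of these shifts was not tested. Without pigs 9994, 9995 and 9997, fewer samples, 1 was called at 2 years and 7 between 1 and 2 years instead of 16; with brachial arrays only 7. Without the lowest 50% of probe sets 3 were called for artery by age instead of 0. Leaving out single pigs gave 6 to 9 calls over all ages, 1 to 3 at 1 week (1 without 9483 or 9485), 3 to 5 at 1 year, 1 to 5 at 2 years (1 without 9994 or 9995, 5 without 9006), 0 to 2 for artery by age, 22 to 28 and 16 to 22 against 1 week, and 10 to 17 between 1 and 2 years (10 without 9995).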
